A study of Mus musculus with 8 samples.

Results

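YTHDF3 RIP-seq peaks at promoter-TSS positions are described here. A promoter-TSS position is the class that the HOMER annotation gives to a site lying from 1 kb upstream to 100 bp downstream of an annotated transcription start site (TSS). Every peak whose deposited annotation began with "promoter-TSS" was taken, which gave 5044 of the 87940 peaks in the 4 lists. By list, these were 1258 peaks in normal replicate 1, 923 in normal replicate 2, 1431 in starved replicate 1 and 1432 in starved replicate 2. Peaks with at least 2 times as much signal in the immunoprecipitate (IP) as in the input and a p-value below 0.0001 were kept. This left 4990 peaks and dropped 54. The weakest p-value inside the limit belonged to a peak at Nek7, with 85 IP and 32 input reads in normal replicate 1. The nearest outside it belonged to a peak at Dcun1d3, with 105 IP and 20 input reads in starved replicate 1.

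The cells were mouse embryonic fibroblasts (MEFs) from wild type C57BL/6 embryos at 13.5 days post-coitum, used at passage 5 to 6. Normal cells were untreated, and starved cells were kept for 2 h in nutrient-deprived medium. RNA bound by endogenous YTHDF3 was recovered with an antibody, and the input was RNA of the same cells without antibody, both from polyA RNA. Each condition had 2 replicates, so there were 8 libraries, and each of the 4 peak lists set an IP library against an input. The labels do not say whether replicates came from separate cultures, so the p-values below measure only the spread between these samples, which may be technical. In such bulk samples, fewer cells of a type and less RNA per cell cannot be told apart. Of 11 fibroblast markers, 6 had a peak in some list, Pdgfra among them at a promoter-TSS position. Epithelial and muscle markers had no peak. The endothelial marker Kdr had a promoter-TSS peak with 0 to 5 input reads, and the neural marker Nes had peaks with 0 to 74. The macrophage marker Csf1r had 30 peaks, and all 30 touched the neighbouring fibroblast gene Pdgfrb.

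YTHDF3 is a cytoplasmic protein that reads N6-methyladenosine (m6A), a methyl mark that METTL3 and its partners place on adenosines within a short RNA motif whose core is GGAC. The mark is best known near stop codons and in 3′ UTRs, and it also occurs in 5′ UTRs. A start site marks the first base of a transcript, so RNA mapped just upstream of it belongs to some other annotated or unannotated transcript, or to the same gene read from an earlier start. At many mammalian genes a second transcript also starts close by and runs the other way.

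Sequences at 8 start sites are shown because the values given further on turn on these regions. Each window runs 5′ to 3′ on the strand of the gene and holds 170 bases before the first annotated base of the transcript and 30 bases from it, in mm10. The bases were read from the RefSeq copy of the same assembly. Capitals mark GGAC or its reverse complement GTCC, which is GGAC on the opposite strand. Dusp5, Nuak2 and Spry2 are shown as starts whose regions had fewer reads after starvation, and Maf as a start whose region had more. D430036J16Rik is shown as a start lying within the coding sequence of another gene. Shroom4 and Sec24d had changes of the IP/input fold of opposite sign, and Kcnd2 ranked first by the lowest of its 4 folds. In Dusp5, Sec24d and Maf the start named in the peak list lay 36, 41 and 900 bases downstream of the first annotated base.
Dusp5, chr19:53528939-53529138, plus strand: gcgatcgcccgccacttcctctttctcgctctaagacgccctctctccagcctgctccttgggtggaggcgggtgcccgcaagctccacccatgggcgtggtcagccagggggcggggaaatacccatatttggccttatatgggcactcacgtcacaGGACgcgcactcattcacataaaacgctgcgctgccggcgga
Nuak2, chr1:132315955-132316154, plus strand: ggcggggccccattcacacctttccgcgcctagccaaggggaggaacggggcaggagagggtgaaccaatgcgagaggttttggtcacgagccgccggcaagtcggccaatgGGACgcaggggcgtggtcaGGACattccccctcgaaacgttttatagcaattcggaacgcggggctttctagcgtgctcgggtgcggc
Spry2, chr14:105896790-105896989, minus strand: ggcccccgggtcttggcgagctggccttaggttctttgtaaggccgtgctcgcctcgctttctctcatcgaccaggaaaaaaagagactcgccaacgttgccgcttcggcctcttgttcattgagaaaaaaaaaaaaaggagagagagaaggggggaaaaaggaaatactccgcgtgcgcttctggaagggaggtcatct
D430036J16Rik, chr9:81632188-81632387, plus strand: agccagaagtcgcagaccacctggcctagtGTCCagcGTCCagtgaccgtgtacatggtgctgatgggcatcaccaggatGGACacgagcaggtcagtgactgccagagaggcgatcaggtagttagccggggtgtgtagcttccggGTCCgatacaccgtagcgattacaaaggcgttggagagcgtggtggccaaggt
Maf, chr8:115707765-115707964, minus strand: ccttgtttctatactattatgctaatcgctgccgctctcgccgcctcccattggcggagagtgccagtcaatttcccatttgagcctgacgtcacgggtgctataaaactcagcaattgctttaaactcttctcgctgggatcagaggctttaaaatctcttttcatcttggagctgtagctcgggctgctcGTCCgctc
Shroom4, chrX:6415572-6415771, plus strand: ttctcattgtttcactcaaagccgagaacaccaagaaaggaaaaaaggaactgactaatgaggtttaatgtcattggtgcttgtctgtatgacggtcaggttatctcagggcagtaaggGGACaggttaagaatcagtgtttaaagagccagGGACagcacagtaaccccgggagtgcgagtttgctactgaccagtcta
Sec24d, chr3:123267285-123267484, plus strand: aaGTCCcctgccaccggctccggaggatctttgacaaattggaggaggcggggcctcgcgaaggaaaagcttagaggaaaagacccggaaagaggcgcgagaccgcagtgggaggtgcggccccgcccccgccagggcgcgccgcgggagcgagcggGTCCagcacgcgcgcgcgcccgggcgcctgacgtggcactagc
Kcnd2, chr6:21215176-21215375, plus strand: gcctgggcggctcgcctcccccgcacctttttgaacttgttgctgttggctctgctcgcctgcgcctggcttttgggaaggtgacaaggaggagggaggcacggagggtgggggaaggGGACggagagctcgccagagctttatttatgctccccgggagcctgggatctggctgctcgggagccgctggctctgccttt

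GGAC on either strand was found in 15 of the 21 start windows that were read for regions named in the results, and in 76.1% of the same window of all 32851 RefSeq promoters. Among the 8 shown, Spry2 held no GGAC on either strand, Dusp5 held 1 match and D430036J16Rik held 4. After these windows had been read, 2 further motifs were searched. The CArG box, known as the binding site of serum response factor, was found at 2 places in the Dusp5 window and in no other of the 21 windows, against 1.11% of RefSeq promoters with at least 1 match. TGACGTCA, the cyclic AMP response element, is its own reverse complement and was found in the Maf window, against 1.62% of RefSeq promoters. A match describes the letters and is no measured site.

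Promoter-TSS peaks took a similar share of the peaks in both conditions. The share of kept peaks was 7.14% in normal replicate 1, 4.14% in normal replicate 2, 6.15% in starved replicate 1 and 5.76% in starved replicate 2. The normal replicates lay on both sides of the starved ones. The means were 5.64% ± 2.12 in normal and 5.95% ± 0.27 in starved cells (SD, n = 2 each; exact permutation test, two-sided, p = 1, where the smallest p this design allows is 0.333). The difference of 0.31 percentage points became 1.82 without normal replicate 1 and -1.19 without normal replicate 2. The share of all IP reads within peaks that fell in promoter-TSS peaks was 5.45%, 3.18%, 4.07% and 3.55% in the same order. These shares rest on 480901, 457372, 639309 and 685006 IP reads in promoter-TSS peaks, out of 8818619 to 19271667 IP reads in all peaks of a list.

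Individual promoter-TSS peaks were short and mostly shallow. The median length was 380 to 400 bp, and the median peak held 85, 90, 101 and 103 IP reads in normal replicates 1 and 2 and starved replicates 1 and 2. The median input count was 22, 31, 13 and 22 reads. The IP/input fold, scaled by the deposited size factors and with input raised to 3 reads where it was lower, had a median of 3.43, 3.29, 3.11 and 3.39. In 15.9 to 27.8% of promoter-TSS peaks the input had 3 reads or fewer, against 14.0 to 25.4% of all peaks. Reads were concentrated in few peaks. The 10 deepest promoter-TSS peaks of a list held 29.6 to 43.5% of its promoter-TSS IP reads.

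The fold at promoter-TSS peaks was compared with that of other classes within each list. The median log2 fold was higher than that of all other peaks in 4 of 4 lists, by 0.12 ± 0.033 (SD, n = 4). It was higher than at 5′ UTR peaks in 4 of 4 lists, by 0.12 ± 0.048, and higher than at exon peaks in 4 of 4 lists, by 0.21 ± 0.052. It was lower than at peaks near transcription termination sites (TTS) in 4 of 4 lists, with a mean difference of -0.089 ± 0.045. Against intron peaks the lists were split, 2 higher and 2 lower, with a mean difference of -0.026 ± 0.093. The exact permutation test over the 4 lists gave p = 0.125, the smallest it can give, for the first 4 comparisons and p = 0.75 for introns. After Benjamini-Hochberg adjustment over the 5 comparisons none passed, at 0.156 and 0.75 (exact permutation test, two-sided). Among peaks with more than 3 input reads, or with at least 50 IP reads, the difference from 5′ UTR peaks shrank to 0.044 and 0.023 (3 of 4 lists higher in the latter), and that from exon peaks to 0.13 and 0.10. The difference from introns turned positive among peaks with more than 3 input reads (0.066) or at least 50 IP reads (0.11), and that from TTS peaks turned positive in the latter (0.031).

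A peak was called repeated where the other replicate of its condition had a peak overlapping it by at least 1 bp. The shares of promoter-TSS peaks that were repeated were 43.3%, 52.4%, 58.8% and 53.5% in normal replicates 1 and 2 and starved replicates 1 and 2. Other peaks were repeated at 61.6%, 44.0%, 60.7% and 54.4%. The mean difference was -3.17 ± 11.1 percentage points (SD, n = 4; exact permutation test, two-sided, p = 0.625). It was 1.86 without normal replicate 1 and -7.04 without normal replicate 2, so its sign rested on single lists. Repeat calling followed the number of IP reads. Of promoter-TSS peaks with under 50 IP reads 25.3% were repeated, against 46.5% at 50 to 100 reads, 64.1% at 100 to 300 reads and 80.8% at 300 reads or more. Other peaks had 25.0%, 47.1%, 64.2% and 78.8% in these steps.

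By the definition of the class, promoter-TSS peaks lie from 1 kb upstream to 100 bp downstream of a start. Of the 4953 kept peaks with a placed start, 4736 had their center in that range and were used here. The median distance of the peak center to the start was -77, -198, -138 and -168 bp in the 4 lists, where negative values are upstream. The center was upstream in 59.5%, 73.5%, 64.9% and 66.1% of peaks, highest in normal replicate 2 and lowest in normal replicate 1. The start itself lay inside 62.6%, 53.0%, 57.2% and 58.3% of the peaks. The single 100 bp bin downstream of the start held 39.9%, 25.7%, 34.3% and 33.3% of centers. A start codon of the same gene lay inside 23.0%, 19.9%, 18.2% and 20.4% of peaks. In 1983 peaks, 41.9%, the peak ended upstream of the named start.

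**Figure D1:**
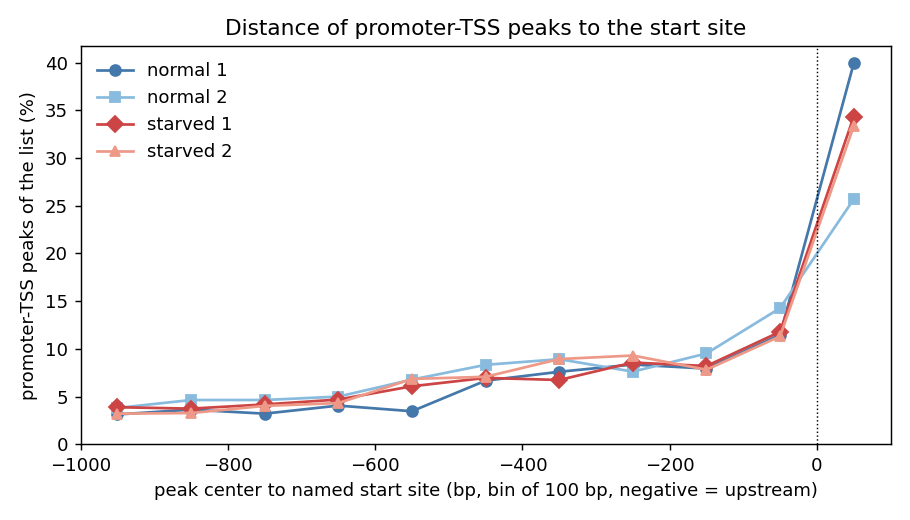
Distance of the peak center to the named start site (x axis, bp, in bins of 100 bp, negative upstream), with a line for each of the 4 lists. The y axis is the share (percent) of the list's promoter-TSS peaks with a center in this range. The bin just downstream of the start held the most peaks in every list, from 25.7% in normal replicate 2 to 39.9% in normal replicate 1.

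The peak centers were placed on annotated genes without regard to the strand of the reads, so the transcript the reads came from is not shown. A center counted for the start's own gene wherever that gene had an exon there. Otherwise it counted for another gene on the same strand, and then for one on the opposite strand. An exon of the gene that owns the start held 49.5% ± 2.32 of centers (SD over 4 lists; 2474 peaks), and 79.7% of these lay in a 5′ UTR and 12.7% in coding sequence. An exon of another gene on the opposite strand held 20.9% ± 0.79 (1040 peaks), of which 51.4% were in a 5′ UTR and 29.8% in coding sequence. An exon of another gene on the same strand held 5.77% ± 0.73 (285 peaks), of which 44.6% were in a 3′ UTR. Introns alone held 12.8% ± 0.75 (639 peaks) and no annotated gene 10.9% ± 0.64 (546 peaks). The order of these categories was the same in all 4 lists. When any overlap of the peak with an exon was counted, 70.7% ± 2.83 touched an exon of the start's own gene.

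**Figure D2:**
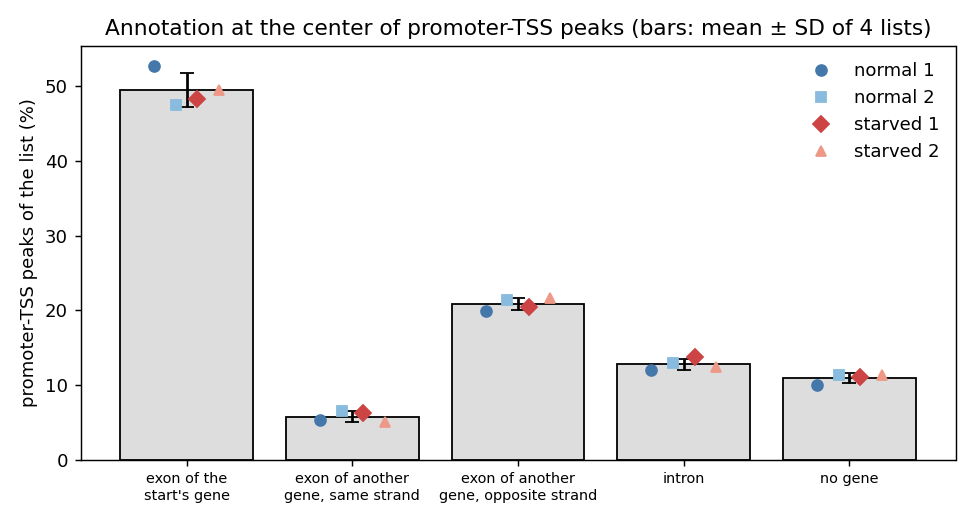
Share of promoter-TSS peaks (y axis, percent of the list's peaks) by the annotation at the peak center (x axis). Bars are means and error bars SDs over the 4 lists, whose values are the points. Exons of the start's own gene held 49.5% and exons of genes on the opposite strand 20.9%.

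Peaks in the categories differed in depth. Centers outside any gene had a median of 35.5 to 46 IP reads by list, and 41.7 to 57.0% of them had 3 input reads or fewer. They were repeated in 42.5% of cases, against 53.2% on the start's own exons and 58.6% on opposite-strand exons. These categories were set by annotation alone, and depth differed between them as given, so no test of the repeat shares was made. Of the 1983 peaks that ended upstream of their start, 29.9% overlapped an exon of the start's own gene, which then had an earlier annotated start. Another 39.1% overlapped an exon of an opposite-strand gene and no exon on the strand of the start. By peak center, opposite-strand exons held 21.5%, 23.0%, 27.4% and 31.6% of promoter-TSS IP reads in normal replicates 1 and 2 and starved replicates 1 and 2. The starved lists were both higher than the normal ones in this share of reads, but not in the share of peaks (19.9%, 21.4%, 20.5% and 21.6%). The categories share 1 total. Centers outside any gene held 21.2% and 22.4% of the reads in normal and 14.8% and 15.1% in starved lists. Exons of the start's own gene were also lower (43.4% and 43.2% against 38.9% and 38.8%). Same-strand exons of another gene were higher and introns were split. None of this was tested.

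The peak lists also name a gene for each peak, and at promoter-TSS peaks this was often not the gene of the start. Of 4953 peaks whose start could be matched to a gene, 960 (19.4%) were listed under another gene, at 480 start genes. In 714 of these 960 the center lay on an exon of an opposite-strand gene, and in 711 of the 714 that gene was the listed one. In 74 of the 960 the center lay on an exon of the start's gene. Where both names were the same gene (3993 peaks), 59.6% of centers lay on its exons. Among the 192 peaks named for a microRNA gene, at 89 genes, 155 had their center in a protein-coding gene. Their reads were counted over the peak, so they are not counts of mature microRNA.

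The DNA under promoter-TSS peaks was rich in G, C and CpG. In 200 bp windows at the peak centers the median GC content was 65 to 69.5% by list, against 52 to 54% for all peaks and 64 to 70% for 5′ UTR peaks. The observed over expected CpG ratio had a median of 0.77 to 0.86, against 0.32 to 0.34 for all peaks. GGAC on either strand lay in 86.2%, 83.9%, 86.6% and 88.7% of windows, a mean of 86.4% ± 1.95 (SD, n = 4). The mean was 80.6% ± 1.11 for all peaks, 86.7% at 5′ UTR peaks, 82.8% at exon peaks, 76.8% at intron peaks and 75.8% at 3′ UTR peaks. The last 200 bases of all RefSeq promoters, with a median GC of 54%, held GGAC in 76.8%. In 100 bp windows the share at promoter-TSS peaks was 64.3%. On the start's own exons, 63.1% of windows held GGAC on the strand of the gene and 62.2% on the opposite strand, which are close values. These shares are descriptions, as base composition differed between the classes.

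**Figure D3:**
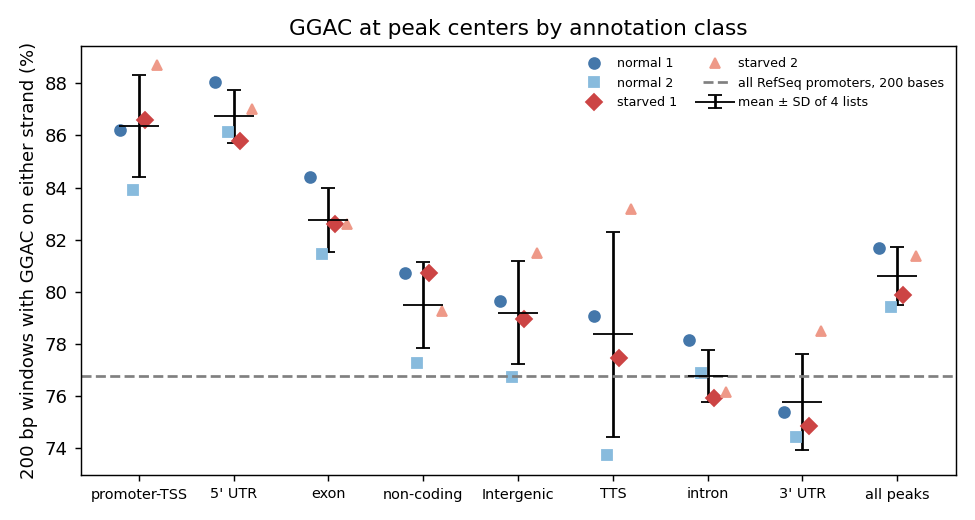
Share of 200 bp windows at peak centers with GGAC on either strand (y axis, percent, not starting at 0) by annotation class (x axis), with points for the 4 lists and their mean ± SD. The dashed line is the share in the last 200 bases of all RefSeq promoters, 76.8%, and promoter-TSS windows had a mean of 86.4%.

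Peaks that overlapped between lists were joined, which gave 39979 regions. Of these, 2803 held at least 1 promoter-TSS peak. A peak was called in these regions in 1 list for 1203, in 2 lists for 568, in 3 lists for 467 and in all 4 lists for 565. In 256 regions the promoter-TSS class was given in all 4 lists, and 739 of the 2803 held a peak of another class as well. Regions called in both starved lists and no other numbered 148 (5.28%, against 4.70% of all regions). Regions called in both normal lists and no other numbered 27 (0.963%, against 1.30%). Those called in both replicate 1 lists and no other numbered 130 (4.64%, against 2.76%), and those called in both replicate 2 lists and no other 115 (4.10%, against 7.40%).

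Within the 148 and 27 regions, 109 and 15 had a promoter-TSS peak in both lists. The deepest of them were chosen after their values had been seen. In the starved lists, the deepest lay at the start of Rpl7a, a ribosomal protein gene, on the 5′ UTR of Med22 on the other strand, with 1137 and 830 IP reads at folds of 2.04 and 2.41. Gtf3c1, a subunit of transcription factor IIIC, followed with 819 and 715 IP reads at folds of 2.66 and 3.81. In the normal lists, the deepest lay in the coding sequence of Slc7a5, a large neutral amino acid transporter, with 4349 and 2742 IP reads at folds of 2.38 and 2.18. The folds at Rpl7a and Slc7a5 lay close to the limit of 2, and a list holds no value for a region without a peak.

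The 565 regions called in all 4 lists could be tested for a change with starvation. Counts were fitted with edgeR's quasi-likelihood test over all 6531 regions called in all 4 lists, with Benjamini-Hochberg adjustment over the 6531. For the IP/input ratio, no promoter-TSS region passed an adjusted p of 0.05 in either direction, where 0.0153% of all regions did (edgeR). At an unadjusted p under 0.05 there were 27 by edgeR, against 2.8% of all regions, and 7 by DESeq2, against 0.551% of all regions, which also called 0 of the 565. The median log2 change of the ratio was 0.0060 in promoter-TSS regions and -0.015 in all regions. Libraries were scaled to one another over these regions, which holds the median over all of them near 0. These medians therefore cannot show a shift common to all regions. The median absolute log2 change of a region's fold, taken as the highest of its peaks in a list, was 0.32 between conditions and 0.36 between replicates, and the change had the same sign in both replicates in 49.0% of the 565 regions. In simulated data of 6531 regions, 80% of 2.5-fold ratio changes were recovered.

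IP and input reads were then tested separately, per base of called sequence. For IP reads 7 promoter-TSS regions passed, where 0.842% of all regions did. Of these 1 was higher after starvation, where 0.0919% of all regions were, and 6 were lower, against 0.75% of all. For input reads 11 passed, where 1.22% of all regions did. Of these 2 were higher, against 0.23% of all, and 9 were lower, against 0.995% of all. The 7 regions that passed in IP reads also passed in input reads, in the same direction. These changes are relative to the other peak reads of the library. Before scaling, IP reads per base had risen by a median of 0.77 (replicate 1) and 0.44 (replicate 2) on the log2 scale over all regions. None of the 7 or 11 passed when region length was not taken into account, where adjusted p-values were 0.105 to 0.277 in IP and 0.0973 to 0.299 in input reads (edgeR). The direction was the same in all of them, and the log2 change was as large or larger in 7 of 7 and 8 of 11, as at Dusp5 (-3.30 in IP reads) and Maf (2.77). Of the 256 regions classed promoter-TSS in all 4 lists, 1 passed in IP reads (D430036J16Rik) and 2 in input reads (D430036J16Rik and Thbs1). The counts also moved with single libraries. Without normal replicate 1, normal replicate 2, starved replicate 1 or starved replicate 2 there were 26, 28, 16 and 30 calls of IP reads, where 3.05%, 3.31%, 1.56% and 3.43% of all regions passed. For input reads there were 17, 23, 14 and 23, where 1.98%, 2.68%, 0.965% and 2.34% of all regions passed. Simulated data of 6531 regions were fitted without taking region length into account, unlike the main tests. In these, 97.5% of 10-fold changes of IP reads and 88% of those of input reads were recovered, and 0% of 2.5-fold changes of either. Recovery by the main tests of IP and input reads was not simulated.

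**Figure D4:**
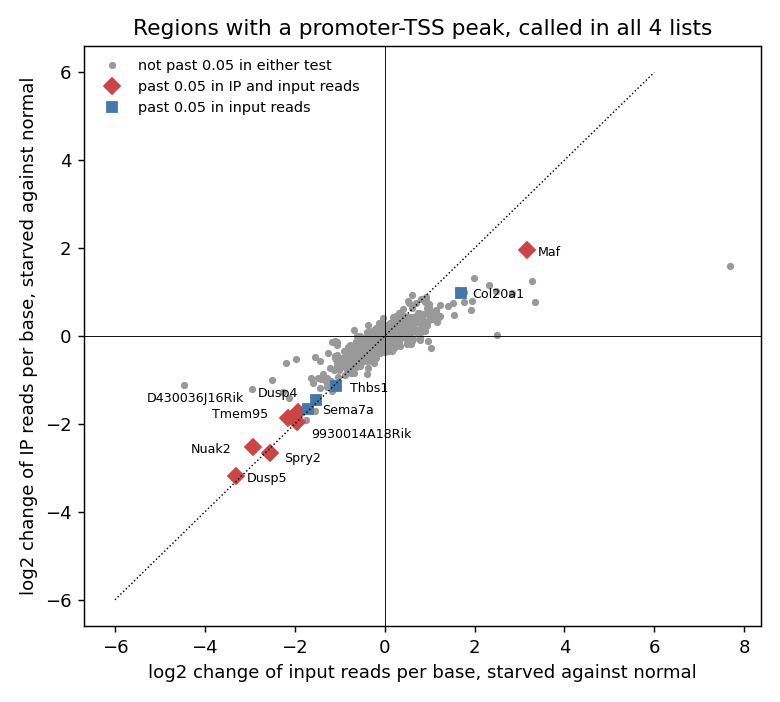
Log2 change of IP reads per base (y axis) against that of input reads per base (x axis), starved against normal, for the 565 regions. Diamonds passed an adjusted p of 0.05 in both, squares in input reads alone, and the dotted line marks equal change. Dusp5 lay lowest, at -3.31 in input and -3.19 in IP reads, and Maf highest among the called regions.

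The lower regions included Dusp5, Spry2 and Nuak2. Dusp5, the nuclear phosphatase of the ERK kinases, had 1894 and 1903 IP reads in the normal lists and 296 and 335 in the starved ones. Its input reads were 673 and 917 in normal and 50 and 95 in starved cells. Both measures fell without overlap of the groups, over a called length of 700 to 850 bp. The log2 change was -3.19 in IP reads (SE 0.26, edgeR adjusted p = 0.00766) and -3.31 in input reads (SE 0.33, edgeR adjusted p = 0.000261). The ratio changed by 0.12 (SE 0.23, edgeR adjusted p = 0.999). Only starved replicate 1 called a promoter-TSS peak there, and in the other lists the overlapping peak had another class. The Dusp5 window printed above is the one with 2 CArG boxes, a motif searched after the windows had been read. A link between these boxes and the fall was not tested.

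Spry2, a feedback inhibitor of receptor tyrosine kinase signalling, had 1957 and 2083 IP reads in normal and 214 and 526 in starved cells. Input reads were 610 and 685 against 31 and 137. The starved values were lower in both libraries and differed from each other by more than the normal ones did. The log2 change was -2.66 in IP reads (SE 0.34, edgeR adjusted p = 0.023) and -2.55 in input reads (edgeR adjusted p = 0.00813). Starved replicate 1 had no promoter-TSS peak at Spry2 but a peak of another class.

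Nuak2, an AMPK-related kinase, had 592 and 517 IP reads in normal and 94 and 107 in starved cells, with 148 and 199 against 10 and 18 input reads. The groups did not overlap, and the log2 changes were -2.53 in IP reads (SE 0.29, edgeR adjusted p = 0.0191) and -2.94 in input reads (edgeR adjusted p = 0.00355). Dusp4, a phosphatase of the same family as Dusp5, had 3790 and 3934 IP reads in normal and 1852 and 3553 in starved cells. It passed in input reads, at -1.53 (edgeR adjusted p = 0.0127), and not in IP reads, at -1.46 (edgeR adjusted p = 0.0718). At Nuak2 and Dusp4, 1 list alone gave the promoter-TSS class.

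Thbs1, the gene of the secreted matrix glycoprotein thrombospondin 1, held the deepest promoter-TSS peak of every list. The peak had 81570 and 76900 IP reads in normal and 73693 and 60803 in starved cells, over 950 to 1250 bp. It alone held 17.0%, 16.8%, 11.5% and 8.88% of the promoter-TSS IP reads of the lists, and its center lay 41 bases upstream of the start. Input reads passed at a log2 change of -1.09 (SE 0.20, edgeR adjusted p = 0.0159). IP reads changed by -1.15 (SE 0.25, edgeR adjusted p = 0.153). The folds were 2.76, 2.20, 2.33 and 2.57, each below the median of its list.

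Further lower regions were D430036J16Rik, 9930014A18Rik, Tmem95 and Sema7a. D430036J16Rik is a noncoding RNA whose start lies on the opposite strand within Htr1b, a serotonin receptor gene. Its region had 22260 and 25958 IP reads in normal and 11252 and 11237 in starved cells, with input reads of 5619 and 7346 against 1346 and 1806. The log2 change of IP reads was -1.73 (SE 0.19, edgeR adjusted p = 0.0187), and the folds were alike, 3.20, 3.53, 3.58 and 4.15. The noncoding gene 9930014A18Rik fell to a similar degree, from 13559 and 17711 to 5585 and 5619 IP reads (log2 change -1.96, edgeR adjusted p = 0.0158). The region named for the start of Tmem95 lay on the 3′ UTR of Kctd11 and had 7339 and 6781 IP reads in normal and 3038 and 2889 in starved cells (log2 change -1.87, edgeR adjusted p = 0.0191). Only starved replicate 1 called a promoter-TSS peak at Tmem95, with 33 IP reads and 1 input read, so nearly all of these reads were in exon and TTS peaks. Sema7a, a membrane-anchored semaphorin, fell in input reads by 1.71 on the log2 scale (edgeR adjusted p = 0.0287), and it too had the promoter-TSS class in 1 list alone.

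Maf, a bZIP transcription factor gene, was the region whose IP reads rose. It had 117 and 243 IP reads in normal and 2015 and 1815 in starved cells, and its input reads were 6 and 63 against 384 and 516. The log2 change was 1.95 in IP reads (SE 0.24, edgeR adjusted p = 0.0209) and 3.18 in input reads (SE 0.49, edgeR adjusted p = 0.00498). The input change was 4.87 without normal replicate 2 and 2.57 without normal replicate 1, and passed in both. The ratio changed by -1.25 (SE 0.34, edgeR unadjusted p = 0.00177, adjusted p = 0.999). The called length also grew, from 990 and 1310 bp to 1950 and 2180 bp. The region also held exon and 3′ UTR peaks, and starved replicate 2 had no promoter-TSS peak there. The promoter-TSS peak held 37 and 92 IP reads in normal replicates 1 and 2 and 1694 in starved replicate 1. The region's highest fold in normal replicate 1, 21.5, came from a peak with 3 input reads or fewer. The promoter-TSS peak there had a fold of 9.95. The region at the start of Col20a1, a collagen gene, was centered on an exon of another gene, BX649560.1, and also held 3′ UTR, TTS, intron and intergenic peaks. It rose in input reads by 1.70 (edgeR adjusted p = 0.0159), over a called length that went from 1460 and 3030 bp to 5550 and 5570 bp.

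**Figure D5:**
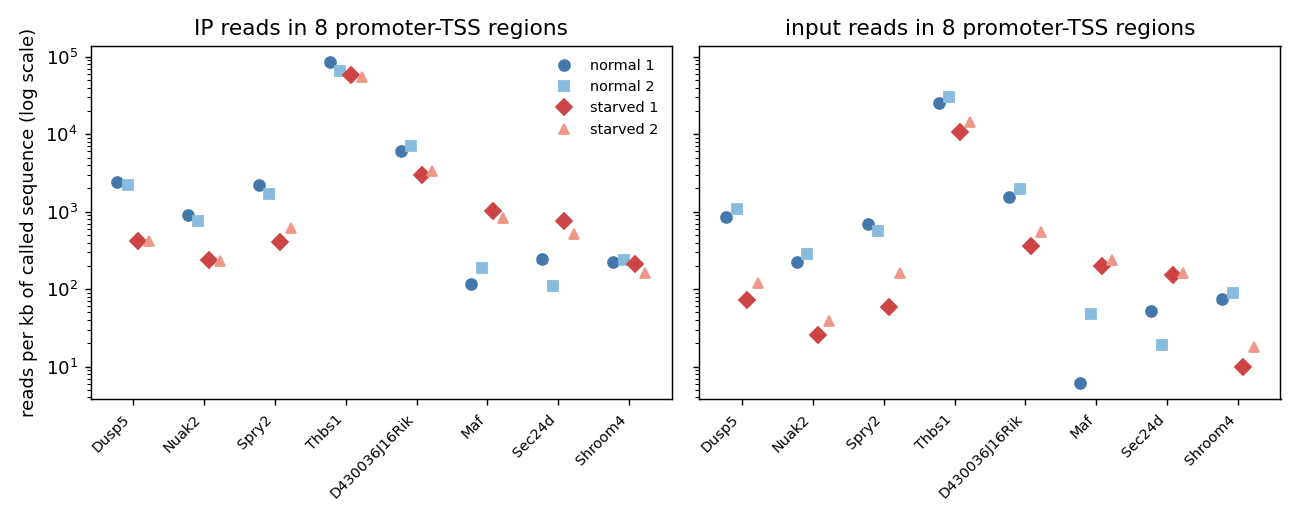
IP reads (left) and input reads (right) per kb of called sequence on a log axis (y) for 8 named regions (x), with a point for each list and no scaling for library size. Dusp5, Nuak2 and Spry2 were lower and Maf higher in both starved lists, in IP and in input alike, while Shroom4 was lower in input and closer together in IP.

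The region's highest fold moved 1.8-fold or more, and the same way in replicate 1 as in replicate 2, in 8 of the 565 regions, where 0.72% of all regions did. It was higher in 3 (Sbno2, Eef1d and Shroom4), where 0.367% of all regions were, and lower in 5 (1700094J05Rik, Pelo, Ubn2, 4930599N23Rik and Maf), where 0.352% were. Those outside the naming rule, Sbno2, 1700094J05Rik, Pelo, Ubn2 and 4930599N23Rik, are named because the counts are small. None passed the ratio test.

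The largest such changes among regions with a promoter-TSS peak in all 4 lists came with changes of input. Shroom4, an actin-binding protein gene, had 87 and 84 IP reads in normal and 87 and 63 in starved cells. Its input fell from 29 and 31 to 4 and 7 reads, and the folds were 2.42 and 2.71 against 9.32 and 6.00. Its ratio change was 1.46 (SE 0.51, edgeR adjusted p = 0.999). At Sec24d, which encodes a cargo-binding subunit of the COPII vesicle coat, 57 and 52 IP reads in normal stood against 516 and 399 in starved cells, and 12 and 9 input reads against 103 and 125. The folds were 3.83 and 5.78 in normal and 2.15 and 2.13 in starved cells, so more reads came with a lower fold (ratio change -1.15, SE 0.38, edgeR adjusted p = 0.999).

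At the start of Bcs1l, which encodes an assembly factor of respiratory complex III, the peak center lay on the 5′ UTR of Zfp142, a zinc finger gene on the other strand. Its folds were 2.24 and 2.09 in normal and 3.87 and 4.17 in starved cells, with 97 and 194 IP reads against 352 and 388. The start of Eef1d, a subunit of translation elongation factor 1, likewise lay beside Tigd5, and its region was centered on Tigd5 coding sequence, with 559 and 451 IP reads in normal and 529 and 333 in starved cells. At its promoter-TSS peak the folds were 2.71 and 4.05 in normal and 3.51 and 2.72 in starved cells, and the ratio changed by 0.054 (SE 0.28). It was counted among the higher regions through its other peaks, of the exon and 3′ UTR classes. Psme2b, a proteasome activator gene, had folds of 3.71 and 3.03 in normal and 6.00 and 4.21 in starved cells at its promoter-TSS peak. Its region was centered on the 3′ UTR of another gene, 9930111J21Rik1. Over that region IP reads were 92 and 94 in normal and 87 and 113 in starved cells, and input reads 20 and 31 against 5 and 16. By the highest fold of the region, lower values in both replicates were also found at Gse1, Acvr1, a bone morphogenetic protein receptor gene, and Bcl11b, a zinc finger transcription factor gene. At the promoter-TSS peak of Bcl11b the folds were 4.38 and 2.35 in normal and 2.62 and 3.09 in starved cells, lower in replicate 1 and higher in replicate 2. Bcl11b had 91 and 283 IP reads in normal and 556 and 422 in starved cells over its region. The adjusted p of the ratio was 0.999 at each of these (edgeR).

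Regions were ranked for steady enrichment by the lowest of their 4 folds, where the fold of a region in a list is the highest of its peaks there, whatever their class. Of 249 regions with a promoter-TSS peak and at least 20 IP reads in every list, Kcnd2, a voltage-gated potassium channel gene, ranked highest. Its peaks had 86, 46, 90 and 92 IP reads against 1, 3, 5 and 2 input reads. Satb1, a chromatin organizer gene, had 30, 22, 58 and 65 IP reads against 1, 3, 2 and 3 input reads. At both genes the starved IP counts, not scaled for library size, lay above the normal ones, by few reads at Kcnd2. After scaling and per base, the log2 change of IP reads over the region was -0.27 at Kcnd2 and -0.18 at Satb1, and neither passed. Fam53b had 24, 35, 117 and 52 IP reads with 2, 2, 8 and 5 input reads. Lrrc4c, a synaptic adhesion protein gene, had 39, 27, 53 and 40 with 6, 4, 1 and 4. At Antkmt, a mitochondrial methyltransferase gene listed as Fam173a, the values were 22, 49, 229 and 124 with 2, 7, 27 and 8 at the promoter-TSS peak. Its rank came from its 3′ UTR and TTS peaks, since the promoter-TSS fold was 3.63 in starved replicate 1. The region at Mir7219 lay on the 3′ UTR of Fam210a. Ratios over so few input reads are known only within wide counting error, and none of the 6 passed the ratio test for a change with starvation (edgeR adjusted p = 0.999).

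The regions ranked by change of IP reads per base gave no call beyond D430036J16Rik. Amotl2, an angiomotin family gene, had 1667 and 1458 IP reads in normal and 783 and 713 in starved cells (log2 change -1.70, SE 0.29, edgeR adjusted p = 0.0591). Bcl9l, which encodes a cofactor of beta-catenin, had 51 and 49 against 337 and 146 (1.31, SE 0.36, edgeR adjusted p = 0.265). Adar, the gene of an RNA-editing adenosine deaminase, had 66 and 21 against 193 and 108 (0.66, SE 0.46, edgeR adjusted p = 0.71). The starved values lay above the normal ones at Bcl9l and Adar and below them at Amotl2, without passing the test. Asb1 and Jrk also ranked among the lower regions, and Mir1904, on the 5′ UTR of Pde4d, a phosphodiesterase gene, among the higher.

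By IP reads summed over the lists, the regions that ranked next after Thbs1 among those classed promoter-TSS throughout were those of Gm26851 and Mir546, and both lay on another gene than that of the start. Of the 10 deepest promoter-TSS peaks of a list, 4, 5, 4 and 2 had their center on an exon of the start's own gene. The region at the noncoding Gm26851 lay on coding sequence of Pcdh19, a protocadherin gene on the opposite strand, and had 23168 to 36330 IP reads over the 4 lists. The region at Mir546 lay on the 3′ UTR of Ctdsp2, a phosphatase gene, with 14044 and 14120 IP reads in normal and 36503 and 26983 in starved cells. Neither passed a test of ratio, IP or input.

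The gene lists were read at promoter-TSS regions by their counts. Of the immediate-early and serum-response genes, which growth factors switch on, 10 had a promoter-TSS peak, and 3 of their regions were called in all 4 lists (Dusp4, Dusp5 and Fosl2). Of these 3, Dusp5 passed as lower in IP reads, where 0.75% of all regions did. Dusp5 and Dusp4 passed as lower in input reads, where 0.995% of all regions did. The median log2 changes of the 3, -1.46 and -1.53, are those of Dusp4 itself. Dusp4 and Dusp5 each had the promoter-TSS class in 1 list alone. The gene list was chosen with earlier results of these data known, so its medians are not compared with those of the 565 regions. Fosl2, an AP-1 subunit, differed from the other two of the list, with 4240 and 5747 IP reads in normal and 8896 and 7052 in starved cells and a log2 change of 0.11 (SE 0.24, edgeR adjusted p = 0.943). Zfp36, an mRNA decay factor, had a promoter-TSS peak in the normal lists alone, with 137 and 58 IP reads.

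Genes of autophagy and FOXO signalling, the process that the starvation was meant to induce, had promoter-TSS peaks at 5 genes (Ap4m1, Bmf, Foxo3, Gabarap and Zfyve26). Foxo3, a transcription factor of the fasting response, was the 1 region called in all 4 lists, in 1 of them as promoter-TSS, with 1725 and 1675 IP reads in normal and 5553 and 4334 in starved cells. Its log2 changes of 0.52 in IP reads, 0.32 in input reads and 0.20 in the ratio did not pass. Gabarap, which encodes an autophagosome membrane protein, had 138 IP reads in normal replicate 2 and 167 and 69 in the starved lists, and no peak in normal replicate 1. ATF4 stress-response genes had peaks at 2 genes and 5′ TOP mRNAs at 3 (Rpl18, Rpl7a and Rps18), with 0 regions in all 4 lists.

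The m6A machinery had promoter-TSS peaks at Alkbh5, a demethylase, Rbm15, an adaptor of the methyltransferase, and Ythdf1, a reader, with 1 region in all 4 lists and no call. Replication-dependent histone genes had peaks at 4 genes, with 1 region in all 4 lists, at Hist2h3c1, which had 215 and 116 IP reads in normal and 700 and 284 in starved cells and no call. Small RNA genes and their hosts had peaks at 109 genes in 125 regions, 32 of them in all 4 lists, and none of the 32 passed a test of ratio, IP or input by edgeR. Among those classed promoter-TSS in all 4 lists, the deepest after Mir546 were Mir6914, with 5054 and 6175 IP reads in normal and 7520 and 6821 in starved cells, Mir3102, on Arhgef17, and Mir7009. After scaling and per base, the log2 change of IP reads at Mir6914 was -0.33. The median log2 change of IP reads over the 32 was -0.11, equal to that of the 565 regions. Splicing factors had peaks at 4 genes (Hnrnpr, Hnrnpu, Hnrnpul1 and Srsf2) and 0 regions in all 4 lists.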

How the data were processed

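YTHDF3 RIP-seq of normal and starved MEFs was analysed from 4 peak lists. Per the labels and the methods, the authors trimmed reads, aligned them with TopHat2 2.0.13 to mm10, called each IP against an input in 200 bp windows with diffReps and annotated peaks with HOMER. The lists do not name the input, which was taken as that of the same condition and replicate. The deposited read values were counts in normal replicate 2 and, in the other lists, signal values equal to counts times a single size factor, from which whole reads were recovered. The authors' deposited log2 fold column was not used, and their p-value column served only for the 0.0001 limit. Peaks sharing 1 bp or more were joined with bedtools 2.31.1. Ratio changes came from edgeR 4.0.16 quasi-likelihood fits of IP and input counts together, and IP and input changes from fits with region length as an offset. The SE is the log2 change over the square root of F. DESeq2 1.42.0, other filters and scalings, a replicate block and leaving out each library were alternatives. Scripts were tested on simulated data. Statements on depth cover counting error only.

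The fold of a region in a list was the highest of its peaks. Named regions were the 6 with the highest lowest fold, the 4 largest changes each way of fold and of IP reads per base seen in both replicates, the 3 deepest, up to 4 members per gene list called promoter-TSS throughout, and up to 6 called regions per direction. The members and gene lists were chosen with earlier results of these data known.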

Additional observations from a re-analysis of the deposited data

How the results depend on the processing

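With 2 replicates per condition, depth and the number of libraries limit what can be seen, and a region without a peak in a list has no value there. Of the changes of setting, 40 left the main results within 1.5 times or the spread between lists and 18 did not. The 40 include changes of sign that lay within that spread. The difference in the share of promoter-TSS peaks went from 0.31 to -1.19 percentage points without normal replicate 2. The repeat calling given below is another. The share of promoter-TSS peaks on an exon of the start's gene moved from 49.5% to 70.7% when any overlap was counted, and the share with GGAC from 86.4% to 64.3% in 100 bp windows, as a wider peak or window holds more sequence. Calls of the IP/input ratio numbered 0 to 1 when a library was left out, the 1 being lower without normal replicate 2. Calls of IP reads, 7 in the report, numbered 16 by DESeq2 (2 higher, 14 lower; 2.57% of all regions), 0 with no length offset (0% of all), 27 with the replicate block (8 higher, 19 lower; 4.21% of all) and 16 to 30 when a library was left out. Calls of input reads, 11 in the report, numbered 0 with no length offset, 37 with the replicate block (12 higher, 25 lower, where 4.50% of all regions passed) and 14 to 23 when a library was left out. Changes of at least 1.8-fold in both replicates, 8 in the report, became 31 (12 higher, 19 lower) at a limit of 1.5-fold, where 2.74% of all regions did, and 73 to 77 with only replicate 2 or only replicate 1, where 6.57% and 8.31% did. The difference of log2 fold from 5′ UTR peaks fell to 0.044 and 0.023 and that from exon peaks to 0.13 and 0.10 with more than 3 input reads and at least 50 IP reads. The difference from TTS peaks was -0.0026 in the former. That from intron peaks turned from -0.026 to 0.066 with more than 3 input reads and 0.11 with at least 50 IP reads, and ranged from -0.053 to 0.017 when a library was left out, positive without normal replicate 2. That from TTS peaks went from -0.089 to 0.031 with at least 50 IP reads. The cause of the remaining changes was not tested. The 7 and 11 calls of IP and input reads lost significance without the length offset and kept their direction. The sign of the difference in repeat calling turned without normal replicate 1 (1.86 against -3.17). In the ratio the replicate block left 0 calls. Whether samples with the same replicate number were paired is not known, and 2 pairs cannot show it. The main tests of IP and input reads held no replicate term. Replicate differences of normal and starved cells correlated over the 565 regions at 0.14 in the log2 fold, 0.42 in IP reads per base and 0.22 in input reads per base.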
